A study of Tachycineta bicolor with 30 samples.

Results

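Solute carriers are the membrane proteins that move sugars, ions, metabolites, vitamins and nucleotide sugars into and out of cells and organelles. The members described here are the transcripts whose matched protein title contains the words solute carrier family, with the rows of different isoforms kept apart. They numbered 92 of the 19478 transcripts with values, and they stood for 65 genes in 17 numbered families. A further 256 solute carrier transcripts carry other protein titles, among them the glutamate, GABA and monocarboxylate transporters, and are no members. Brain tissue came from free-living adult female tree swallows (Tachycineta bicolor) caught either during incubation (INC) or during territory establishment (TE), when females compete for nest cavities. From each female the ventromedial telencephalon (VmT), a strip of the caudal telencephalon around nucleus taeniae, the hypothalamus (HYPO) with the preoptic area, and the hindbrain (HB) were dissected, and mRNA was sequenced. Each region had 5 INC and 4 TE libraries, 27 in all. They came from 9 females with 1 library per region, except that 1 VmT library of TE carries the numbers of 2 females. The female of that library is not settled, and the 9 are those of the other libraries. One of the 2 numbers is that of a TE female that the study removed for low RNA integrity in its HYPO and HB and for standing apart from the others. Of the 30 samples in the labels 3 have no values here. No treatment of the females is described, stage and date of capture cannot be told apart, and the dissected tissue holds several cell types. In bulk tissue fewer cells of a type and less RNA per cell cannot be told apart.

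Families are numbered by sequence, and each favours a kind of cargo. In mammals, the SLC2 family carries glucose and other hexoses, SLC12 couples chloride to sodium or potassium and sets the chloride level that decides the direction of GABA currents, SLC13 carries sulfate, citrate and dicarboxylates, SLC15 carries small peptides with protons, SLC22 carries organic cations, organic anions and carnitine, SLC25 serves the inner mitochondrial membrane, SLC35 supplies nucleotide sugars to the Golgi apparatus, and SLC40 exports iron. The roles given below are those of the mammalian proteins, and each transcript is named after its protein match.

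Each library's counts were scaled by a single size factor but not for the length of a transcript, so levels are compared between libraries of 1 transcript and never between transcripts. They are called normalized counts. Summed over the 19478 transcripts with values, the libraries held between 6001315 and 13710385 counted reads, with a median of 8308433. The study reports a higher number of mapped read pairs per sample. Of 15 telencephalon markers, 9 were higher in the VmT than in the HYPO, 11 higher in the VmT than in the HB and 11 higher in the HYPO than in the HB. Of 14 hypothalamus markers, 2 were higher and 8 lower in the VmT than in the HYPO, and 8 were higher and 2 lower in the VmT than in the HB. Of the hindbrain markers, 13 of 15 were lower in the VmT than in the HB and 14 of 15 hindbrain markers lower in the HYPO than in the HB. HOXA3, HOXB3, HOXB5 and HOXB6 were at 0 in every VmT library. The 23 markers of thalamus and midbrain summed to 2056 to 2960.05 normalized counts in VmT INC libraries, against 613 to 2289 in VmT TE libraries. Groups were compared by limma after adding 1 to the normalized counts and taking log2, for the 19473 transcripts that reached 1 or more in 4 or more libraries. A transcript was called with a Benjamini-Hochberg adjusted p of at most 0.05. A log2 fold change is the first-named group minus the second, and for low values the added 1 makes it smaller than the ratio of the means.

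All 92 members passed the filter on low values, and 64 were above 0 in all 27 libraries. A single library detected between 82 and 89 of them, with a median of 86. Their mean over the libraries was at least 1000 normalized counts for 12 rows, at least 50 for 50 rows and below 10 for 29 rows. Together the members made up 0.391 to 0.467% of a library's normalized counts over the transcripts with values, with medians of 0.408% in the VmT, 0.421% in the HYPO and 0.438% in the HB. Across the 27 libraries the coefficient of variation of the 50 rows with a mean of at least 50 ran between 7.70% and 58.1%, with a median of 22.2%. The steadiest were SLC2A3, the neuronal glucose transporter GLUT3, at 7.70%, SLC25A46, a protein of the outer mitochondrial membrane, at 8.54%, and SLC35E1 at 9.77%. The most variable were SLC13A4, a sulfate transporter, at 58.1%, SLC12A2, the sodium-potassium-chloride cotransporter NKCC1, at 41.5%, and SLC2A5, the fructose transporter GLUT5, at 39.1%. The heat map of these 50 rows shows the differences by region, with smaller and less regular ones by stage.

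**Figure D1:**
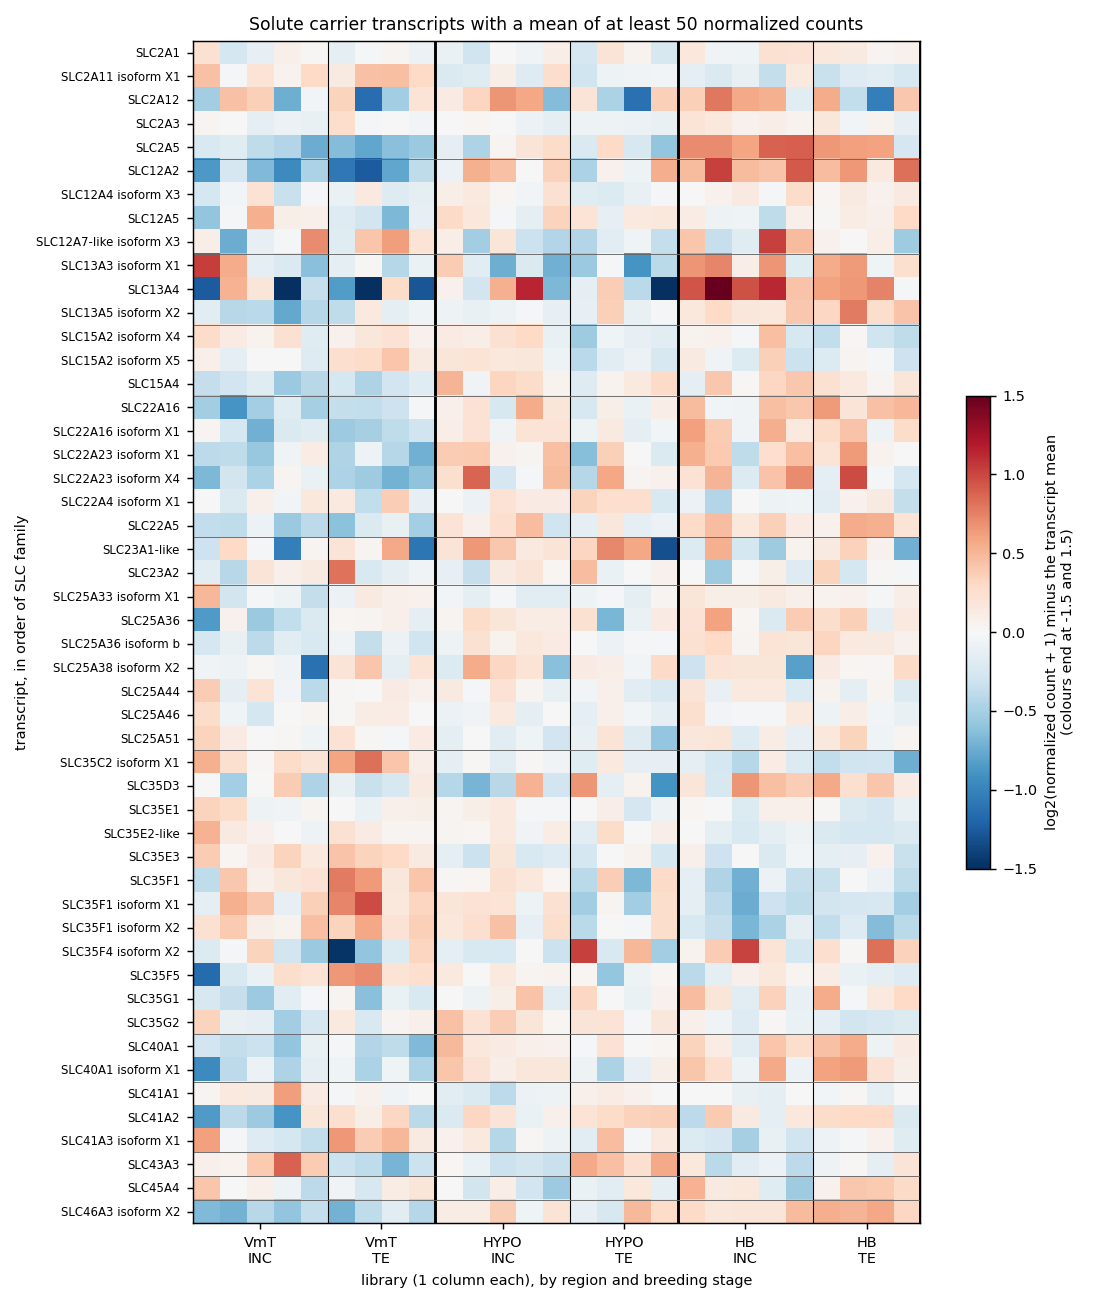
Heat map of the 50 member rows with a mean of at least 50 normalized counts (down the page, ordered by family number) in the 27 libraries (across, grouped as VmT INC, VmT TE, HYPO INC, HYPO TE, HB INC and HB TE). Colour is log2 of the normalized count plus 1 minus the mean of the row. SLC12A2 and SLC2A5 are lowest in the VmT blocks and highest in the HB blocks, SLC13A4 is highest in the HB blocks, and SLC2A3 hardly varies.

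Between regions, 26 of the 92 members differed between the VmT and the HYPO, 8 of them higher in the VmT and 18 higher in the HYPO. That is 28.3% of the members, against 25.9% of all transcripts tested (11.7% higher in the VmT and 14.1% higher in the HYPO). Between the VmT and the HB 38 members differed, 12 higher in the VmT and 26 higher in the HB, which is 41.3% of the members against 43.4% of all transcripts (17.6% and 25.7% by direction). Between the HYPO and the HB 9 members differed, 3 higher in the HYPO and 6 higher in the HB, which is 9.78% against 12.4% of all transcripts (5.33% and 7.05%). With female as a block, which pairs the libraries of a bird, 21 members differed between HYPO and HB, 5 higher in the HYPO and 16 higher in the HB. The share of all transcripts called in that fit is not given here, and the 12.4% is not its background. In the fit without the block the members as a whole thus differed between regions about as often as other transcripts did. Their median log2 fold change was -0.10 for VmT minus HYPO, -0.15 for VmT minus HB and -0.04 for HYPO minus HB, beside -0.05, -0.08 and -0.04 over all transcripts. Among the 50 rows with a mean of at least 50, 20, 28 and 8 were called in these comparisons, beside 33.1%, 51.5% and 16.4% of the 11797 transcripts of that abundance. The 9 and 9 libraries did not overlap for 1 member between VmT and HYPO, 7 between VmT and HB and 0 between HYPO and HB, where 3.48%, 9.94% and 2.49% of all transcripts did not. Only 2, 8 and 1 of the called members differed by at least 2-fold in these comparisons. Of the 92 rows, 49 were called in no pair of regions, 16 in 1 pair, 24 in 2 pairs and 3 in all 3 pairs, and with the block 38, 18, 27 and 9. Leaving out any single library kept 16 of the 26, 28 of the 38 and 5 of the 9 calls. There were 13 rows lower in the VmT than in both other regions, and 6 were higher there than in both. For these counts, for those by number of pairs and for the 2-fold differences, no share of all transcripts is given here. Of all transcripts too, more were called lower than higher in the VmT against either other region. Where several rows of 1 gene were called between the VmT and the HB they had the same sign in 8 of 8 genes, but such rows share sequence, so the counting could have split their reads.

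The called rows of the families leaned to different sides, a count that was not itself tested. Of all transcripts, 11.7% were called higher and 14.1% lower in the VmT than in the HYPO. Against the HB these shares were 17.6% and 25.7%. Of the 17 SLC22 rows, 6 rows from 3 genes were lower in the VmT than in the HYPO and 8 rows from 4 genes were lower in the VmT than in the HB, with none called higher in the VmT. The family median was -0.40 and -0.44, and it stayed below 0 under each of the 4 other scalings tried. SLC35 ran the other way, with 4 of its 15 rows higher and 2 lower in the VmT than in the HYPO, and 7 higher and 4 lower than in the HB. These called rows came from 6 genes against the HYPO and 8 genes against the HB. Its median was 0.06 against the HYPO and 0.19 against the HB, above 0 under each of the 4 other scalings. Of the 14 SLC12 rows 1 was higher and 2 were lower in the VmT than in the HYPO, and 1 was higher and 3 were lower than in the HB. Of the 13 SLC2 rows 3 were higher and 1 lower in the VmT than in the HYPO, and 1 was higher and 1 lower than in the HB. SLC15 and SLC25 had 1 row each lower in the VmT than in the HYPO, out of 6 and 8 rows, and the medians of SLC2, SLC12, SLC15 and SLC25 changed sign with the scaling in at least 1 of the comparisons of the VmT. The 2 SLC40 rows, both of ferroportin, were lower in the VmT than in both other regions, although the call of isoform X1 against the HYPO (-0.37) was ended by leaving out any 1 of 11 libraries, with adjusted p between 0.0508 and 0.0864, and its value in TE libraries alone was -0.12 (adjusted p = 0.742). The 3 SLC13 rows were all lower in the HYPO than in the HB, where 7.05% of all transcripts were. Of these rows 2 were lower in the VmT than in the HB.

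**Figure D2:**
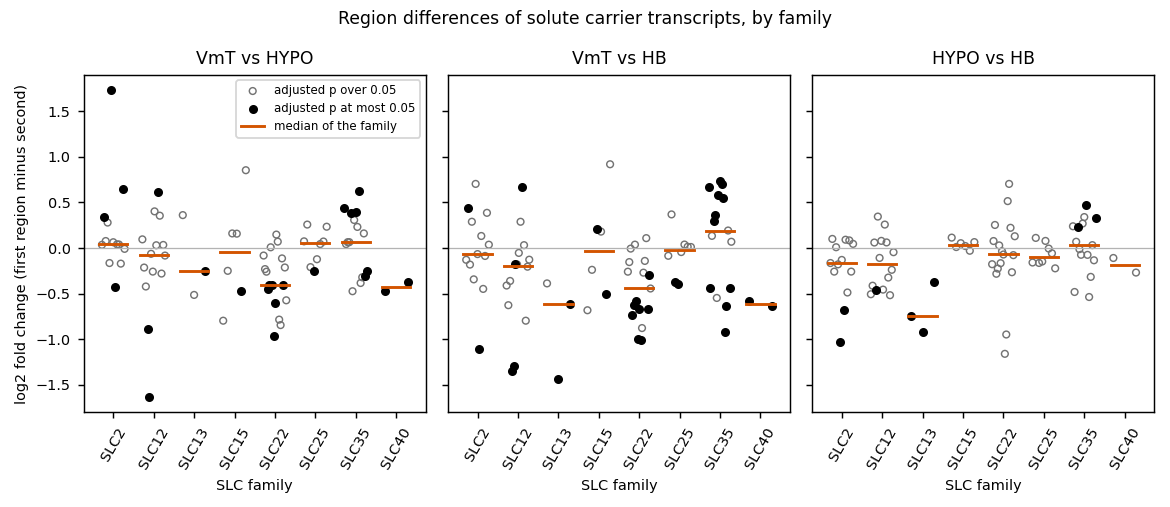
Log2 fold changes of the member rows of 8 families for VmT minus HYPO, VmT minus HB and HYPO minus HB. Each point is 1 row, filled where its adjusted p is at most 0.05, and the orange bar is the family median; the filled SLC22 points all lie below 0 in both comparisons of the VmT, and the median of SLC22 is -0.40 and -0.44.

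Of the cotransporters that set intracellular chloride, SLC12A2 differed between all 3 pairs of regions and SLC12A5 between none. SLC12A2 (NKCC1, transcript OXPHG333100) brings chloride into cells. Its lowest, median and highest normalized counts were 1182, 1636 and 2353 in the 9 VmT libraries, 2017, 2942 and 4088 in the HYPO and 3119, 3907 and 5744 in the HB. VmT and HB libraries did not overlap, while HYPO libraries overlapped both. SLC12A2 was lower in the VmT than in the HB, with a log2 fold change of -1.35 (SE 0.14, adjusted p = 5.8e-09), and lower than in the HYPO at -0.88 (SE 0.14, adjusted p = 1.76e-05). Against the HYPO the call was lost (-0.69, adjusted p = 0.0602) once the level of thalamus and midbrain markers entered the fit as a covariate. Of these markers 15 of 23 were themselves lower in the VmT than in the HYPO, so that fit cannot tell their level apart from region. The step between HYPO and HB was smaller, at -0.46 (SE 0.14, adjusted p = 0.025), and the call was lost without HB TE 85689, HB TE 85694, HB INC 85774 or HYPO TE 85674 (adjusted p = 0.0540, 0.0585, 0.0519 and 0.0738). In all, 8 of the 44 other settings lost this call. SLC12A5 (KCC2), the neuronal cotransporter that moves chloride out, had 1469.7, 2147 and 3401 in the VmT, 2119, 2606 and 2955 in the HYPO and 1806, 2469 and 2875 in the HB. These ranges overlapped and no pair was called, with -0.26 (adjusted p = 0.0768) for VmT minus HYPO and -0.18 (adjusted p = 0.184) for VmT minus HB. Within a library the ratio of SLC12A2 to SLC12A5 counts, which depends on transcript length and so has meaning only between libraries, was 0.523, 0.820 and 1.11 in the VmT, 0.746, 1.32 and 1.66 in the HYPO and 1.26, 1.74 and 2.59 in the HB (lowest, median and highest).

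Other SLC12 rows differed less or were scarce. The potassium-chloride cotransporter SLC12A4 had 2 rows, of which isoform X2 was scarce, at 0 to 10.98 normalized counts in the VmT, 2.08 to 17.7 in the HYPO and 3.12 to 13.5 in the HB. Its log2 fold change was -1.63 (adjusted p = 0.00356) for VmT minus HYPO and -1.29 (adjusted p = 0.0119) for VmT minus HB, but in the INC libraries alone neither was called (adjusted p = 0.635 and 0.381). The abundant isoform X3 was lower in the VmT than in the HB by a small step, at -0.17 (adjusted p = 0.0481), a call that 20 of the 27 single libraries each ended when left out, with adjusted p between 0.0501 and 0.0987. SLC12A7-like isoform X3, a match to KCC4, ran over 36.4 to 101 in the VmT, 42.4 to 69.7 in the HYPO and 42.4 to 127 in the HB, with no call. The rows of SLC12A4 were chosen after their values were seen.

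Several SLC22 rows, the main ferroportin row and a lysosomal carrier were lower in the VmT than in both other regions. SLC22A5 (OCTN2, transcript OXPHG531721) takes up carnitine, which fatty acid oxidation needs. It had 79.3, 92.9 and 114 in the VmT, 98.7, 128 and 168 in the HYPO and 128, 149 and 179.6 in the HB (lowest, median and highest). All VmT libraries lay below all HB libraries. The log2 fold change was -0.67 (SE 0.11, adjusted p = 7.6e-06) for VmT minus HB and -0.40 (SE 0.11, adjusted p = 0.00495) for VmT minus HYPO, the second not called in TE libraries alone (adjusted p = 0.213) or with the thalamus and midbrain covariate (adjusted p = 0.141). SLC22A16, another carnitine transporter, had 2 rows, and both were called on the same side, with isoform X1 at -0.63 (adjusted p = 4.03e-06) for VmT minus HB and -0.40 (adjusted p = 0.00208) for VmT minus HYPO. Isoform X1 had 342, 458 and 582 in the VmT, 512, 604 and 659 in the HYPO and 535, 687 and 866 in the HB. For SLC22A23, a carrier whose cargo is not settled, 3 rows were called on that side as well, of which isoform X1 was the most abundant, at -0.58 (adjusted p = 0.00102) and -0.41 (adjusted p = 0.0252). Without HYPO TE 85689, HYPO TE 85691 or VmT TE 85694 its second call was lost (adjusted p = 0.0708, 0.0502 and 0.0598). SLC22A16 and SLC22A23 were chosen for naming after their values were seen. SLC22A4 isoform X1, the ergothioneine transporter, ran over 384 to 639.6 in the VmT, 423 to 625 in the HYPO and 364 to 542 in the HB and was called in no pair, so that the family did not move as one.

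SLC40A1 (ferroportin, transcript OXPHG343288), the iron exporter, had 291, 359.7 and 456 in the VmT, 458, 486 and 646 in the HYPO and 415, 555 and 681 in the HB. Every VmT library was below every HYPO library, whereas VmT and HB ranges overlapped. It was the only member without overlap between VmT and HYPO (1 of 92), where 3.48% of all transcripts did not overlap. Its log2 fold change was -0.48 (SE 0.10, adjusted p = 0.000511) for VmT minus HYPO and -0.58 (SE 0.10, adjusted p = 1.72e-05) for VmT minus HB, while HYPO and HB did not differ detectably at -0.11 (adjusted p = 0.538). In TE libraries alone the first was -0.43 and was not called (adjusted p = 0.0577). SLC46A3 isoform X2 (transcript OXPHG395206), a proton-coupled transporter of lysosomes, had 102, 125 and 150.5 in the VmT, 142, 182 and 236 in the HYPO and 188, 209 and 252 in the HB. VmT and HB libraries did not overlap, and the highest VmT library exceeded the lowest HYPO library. Its log2 fold change was -0.85 (SE 0.10, adjusted p = 3.67e-08) against the HB and -0.60 (SE 0.10, adjusted p = 2.48e-05) against the HYPO, and both calls held in all 44 other settings. It was the one call between VmT and HYPO, of 26, to do so.

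Markers of several cell types also differed between the regions. Of all transcripts, 11.7% were called higher and 14.1% lower in the VmT than in the HYPO, and 17.6% and 25.7% against the HB. Of 7 oligodendrocyte markers measured, 7 were lower in the VmT than in the HB and 6 lower than in the HYPO, and their summed level was 12319.5 to 23258 normalized counts in the VmT, 24257 to 45752 in the HYPO and 43765 to 65790.3 in the HB. Of 8 astrocyte markers, 7 were lower and 1 higher in the VmT than in the HB, and 5 were lower and 1 higher than in the HYPO, with sums of 19306 to 27579, 23713 to 32069.8 and 28518 to 34781 in VmT, HYPO and HB. Of 9 neuron markers, 2 were higher and 6 lower in the VmT than in the HB, and 2 were higher and 4 lower than in the HYPO, with sums of 14923 to 20221, 17539.7 to 21374 and 19334 to 24058 in VmT, HYPO and HB. Of 12 markers of endothelium and mural cells, 4 were lower in the VmT than in the HB and 1 lower than in the HYPO, with sums of 2539 to 3284, 2650.3 to 4529 and 2783 to 4123. No marker of these lists was at 0 in all libraries of a region. The part of cell content in the lower VmT levels of SLC12A2, SLC22A5, SLC40A1 and SLC46A3 was not tested.

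Citrate and sulfate carriers were highest in the HB. SLC13A5 isoform X2 (transcript OXPHG436740), the sodium-citrate cotransporter, had 349.9, 458 and 658 in the VmT, 545, 565 and 762 in the HYPO and 664, 731 and 1025 in the HB. It was lower in the VmT than in the HB, with no overlap, at -0.62 (SE 0.08, adjusted p = 9.08e-07), and lower in the HYPO than in the HB at -0.37 (SE 0.08, adjusted p = 0.0033). The step between VmT and HYPO, -0.25 (adjusted p = 0.0313), was lost without HYPO TE 85689, VmT TE 85674 or VmT INC 85889 (adjusted p = 0.0877, 0.0883 and 0.0634). Female 85689, of TE, had the highest value of SLC13A5 isoform X2 in each of the 3 regions, at 658 in the VmT, 762 in the HYPO and 1025 in the HB. SLC13A4, the sulfate cotransporter, had 59.4, 102 and 262 in the VmT, 53.1, 166 and 403 in the HYPO and 178, 305 and 577 in the HB. All ranges overlapped, yet it was lower in the VmT than in the HB at -1.43 (SE 0.30, adjusted p = 0.00033). For HYPO minus HB the value was -0.92 (SE 0.30, adjusted p = 0.0436), and 12 of the 27 single libraries each ended that call when left out, with adjusted p between 0.0513 and 0.126. The choroid plexus and meninges, which express SLC13A4 in mammals, were unevenly present: 9 choroid plexus markers summed to 1724 to 12235 in the VmT, 1059 to 16812 in the HYPO and 1345 to 13881 in the HB, with 2 of 9 called higher and 2 lower in the VmT than in the HB, and 7 meninges markers to 479 to 1272, 408 to 2163 and 553 to 1409.6, with 1 of 7 lower in the VmT than in the HB. Of all transcripts, 17.6% were called higher and 25.7% lower in the VmT than in the HB. No marker of the choroid plexus or meninges was at 0 in all libraries of a region, and the part of these tissues in the SLC13A4 levels was not tested. SLC13A3 isoform X1, a dicarboxylate carrier named after its values were seen, was lower in the HYPO than in the HB at -0.75 (adjusted p = 0.0072).

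No regional difference was called for the main glucose carriers, while the fructose carrier differed in all 3 pairs. SLC2A1 (GLUT1), which serves the blood-brain barrier and glia, had 1294, 1531 and 1813 in the VmT, 1256, 1492 and 1768 in the HYPO and 1485, 1696 and 1809 in the HB. SLC2A3 (GLUT3), which serves neurons, had 3383, 3669.7 and 4456 in the VmT, 3366, 3506 and 3795 in the HYPO and 3402, 3888 and 4269 in the HB. Neither was called in any pair of regions, and the largest of their differences was -0.16 (SE 0.07, adjusted p = 0.148) for SLC2A1 in HYPO minus HB. SLC2A5 (GLUT5), which in mammals marks microglia in the brain and was named after its values were seen, had 76.1, 88.7 and 115 in the VmT, 86.7, 119.7 and 161 in the HYPO and 109.7, 207 and 245 in the HB. It was lowest in the VmT and highest in the HB, and the ranges of all 3 regions overlapped. The log2 fold change was -1.11 (SE 0.13, adjusted p = 5.54e-08) for VmT minus HB, -0.68 (SE 0.13, adjusted p = 0.000436) for HYPO minus HB and -0.42 (SE 0.13, adjusted p = 0.0153) for VmT minus HYPO. The call between VmT and HYPO was lost in 3 of 44 other settings and that between HYPO and HB in 1. Of 6 microglia markers measured, 4 were lower in the VmT than in the HB, where 25.7% of all transcripts were, and none were called in the other pairs. SLC2A2 (GLUT2), the low-affinity glucose carrier of glucose-sensing cells, was scarce, at 6.29, 14.1 and 21.96 in the VmT, 0, 4.33 and 9.12 in the HYPO and 6.03, 6.86 and 14.6 in the HB. It was lowest in the HYPO, at 1.74 (SE 0.34, adjusted p = 0.000332) for VmT minus HYPO and -1.03 (SE 0.34, adjusted p = 0.0452) for HYPO minus HB, but 16 of the 27 single libraries ended the second call when left out, with adjusted p between 0.0504 and 0.126. SLC2A11 isoform X1, a hexose carrier, was higher in the VmT than in both other regions, at 0.44 (adjusted p = 3.52e-05) against the HB and 0.34 (adjusted p = 0.00145) against the HYPO. SLC2A2 and SLC2A11 were chosen after their values were seen.

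Of the 12 rows that were higher in the VmT than in the HB, 7 belonged to the SLC35 family, among them every row of SLC35F1. SLC35F1 isoform X2 (transcript OXPHG469367), a carrier of neurons with no settled cargo, had 588, 717 and 848 in the VmT, 428, 635 and 773 in the HYPO and 354, 439.98 and 513 in the HB. VmT libraries lay above all HB libraries, while HYPO libraries overlapped both. It was higher in the VmT than in the HB at 0.70 (SE 0.09, adjusted p = 5.76e-07) and higher in the HYPO than in the HB at 0.47 (SE 0.09, adjusted p = 0.000852), the second not in TE libraries alone (adjusted p = 0.154). The other 2 rows of SLC35F1 were also higher in the VmT than in the HB, at 0.73 (adjusted p = 5.01e-05) for isoform X1 and 0.58 (adjusted p = 0.00205) for the row without an isoform number. SLC35C2 isoform X1, a Golgi protein linked to fucosylation, was higher in the VmT at 0.67 (adjusted p = 4.82e-07) against the HB and 0.44 (adjusted p = 0.000494) against the HYPO. SLC35E3 was higher in the VmT at 0.37 (adjusted p = 0.000259) against the HB and 0.38 (adjusted p = 0.000398) against the HYPO, and SLC35F2 at 0.55 (adjusted p = 0.00651) and 0.62 (adjusted p = 0.00432). With the thalamus and midbrain covariate the step of SLC35C2 between VmT and HYPO shrank to 0.11 (adjusted p = 0.656). Called in the other direction were SLC35G1, lower in the VmT than in the HB at -0.44 (adjusted p = 0.00137), SLC35D3 at -0.44 (adjusted p = 0.0386), and the 2 rows of SLC35F4 at -0.64 (adjusted p = 0.0143) for isoform X2 and -0.92 (adjusted p = 0.0302) for isoform X1. Leaving out any 1 of 10 libraries ended the call of SLC35D3 (adjusted p between 0.0537 and 0.0784), any 1 of 5 that of SLC35F4 isoform X1 (0.0560 to 0.0813), and VmT TE 85674 alone that of SLC35F4 isoform X2 (adjusted p = 0.0513). Apart from SLC35F1 isoform X2 these rows were chosen after their values were seen.

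**Figure D3:**
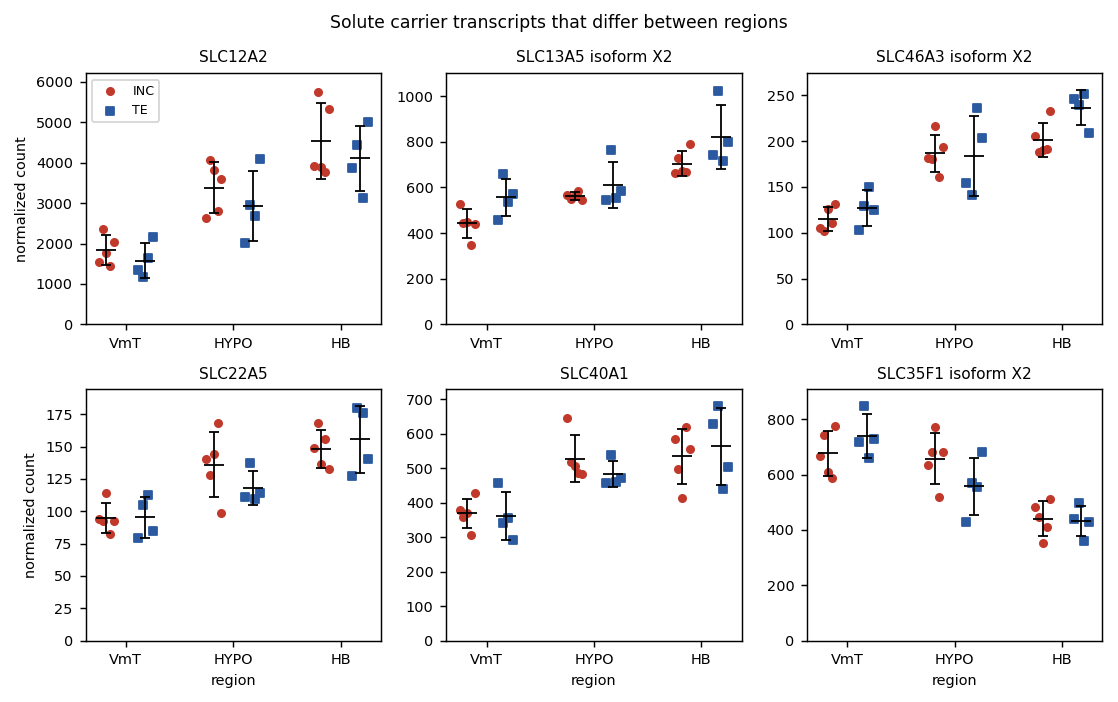
Normalized counts of SLC12A2, SLC13A5 isoform X2, SLC46A3 isoform X2, SLC22A5, SLC40A1 and SLC35F1 isoform X2 in VmT, HYPO and HB. Each point is 1 library, with INC left of TE, and the bars are the mean ± SD of the 5 INC or 4 TE libraries of a region. SLC12A2 runs over 1182 to 2353 in the VmT and 3119 to 5744 in the HB, and SLC35F1 isoform X2 runs the other way.

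Among mitochondrial carriers SLC25A36, which moves pyrimidine nucleotides, had 2 rows lower in the VmT than in the HB, the scarcer of which any 1 of 6 libraries ended when left out (adjusted p up to 0.0659), with isoform b at -0.39 (adjusted p = 2.63e-06) and 984, 1098 and 1248 normalized counts in the VmT, 1210.03, 1299 and 1516 in the HYPO and 1325, 1465 and 1615 in the HB. No other SLC25 row was called in any pair of regions. Of the peptide transporters, SLC15A4, which acts in lysosomes of immune cells, was lower in the VmT at -0.50 (adjusted p = 7.83e-05) against the HB and -0.48 (adjusted p = 0.000362) against the HYPO. SLC15A2 isoform X4 (PEPT2) was higher in the VmT than in the HB by a small step, 0.21 (adjusted p = 0.0431), which 12 of the 27 single libraries each ended when left out, with adjusted p between 0.0549 and 0.0933. Scarcer members of other families were SLC17A9, the vesicular nucleotide carrier, higher in the VmT than in the HB at 0.87 (adjusted p = 0.000838), and SLC52A3 isoform X1, a riboflavin carrier, lower at -1.55 (adjusted p = 0.00015). SLC52A3 had 0.933, 7.52 and 20.98 in the VmT, 6.47, 11.5 and 20.6 in the HYPO and 13.5, 18.03 and 32.2 in the HB. These rows other than SLC15A2 isoform X4 were chosen after their values were seen. SLC23A2, which carries ascorbate into neurons, had 884, 1137 and 2072 in the VmT, 934, 1207 and 1636 in the HYPO and 815, 1184 and 1496 in the HB and was called in no pair.

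Between the breeding stages few members were differentially expressed. In the VmT 2 of 92 members were up-regulated during incubation and none during territory establishment, where 3.53% of all transcripts were called (3.1% and 0.426% by direction). In the HYPO 1 member was called, against 0.514% of all transcripts (0.221% up-regulated and 0.293% down-regulated during incubation), and it was down-regulated during incubation. In the HB limma called 0 members, against 0.00514% of all transcripts, with 6 members at an unadjusted p under 0.05 and 0 called by edgeR and by DESeq2. The median log2 fold change of the members for INC minus TE was -0.03 in the VmT, 0.06 in the HYPO and -0.00 in the HB, beside -0.01, 0.01 and -0.01 over all transcripts. INC and TE libraries did not overlap for 6, 5 and 2 members in VmT, HYPO and HB, where 4.38%, 5.56% and 1.45% of all transcripts did not.

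SLC43A3 (transcript OXPHG179359), a purine nucleobase transporter, was the one member called in more than 1 region. In the VmT it had 147, 145, 184, 257 and 181 normalized counts in the 5 INC libraries, against 111, 107, 85.3 and 111 in the 4 TE libraries. All INC values lay above all TE values. It was up-regulated during incubation with a log2 fold change of 0.79 (SE 0.15, adjusted p = 0.00339). Some markers of the VmT moved with stage too. Of all transcripts 3.1% were called higher in INC in the VmT. Called higher in INC were 2 of 8 astrocyte, 2 of 9 neuron, 1 of 7 oligodendrocyte, 3 of 23 thalamus and midbrain and 1 of 14 hypothalamus markers. None of these lists had a marker called lower, and of 12 endothelium and mural cell markers 0 were called. The astrocyte markers summed to 22271 to 27579 in VmT INC libraries, against 19306 to 22891 in VmT TE libraries, and the neuron markers to 16633 to 20221 in VmT INC, against 14923 to 16961 in VmT TE. The mean log2 value of the astrocyte markers was 9.45 to 9.67 in INC and 8.95 to 9.11 in TE, with no overlap. That of the neuron markers was 8.68 to 9.62 in INC and 8.42 to 9.10 in TE, which overlapped. No astrocyte or neuron marker was at 0 in all libraries, and the part of cell content in the SLC43A3 difference was not tested. HYPO levels were 142, 130.3, 111, 115 and 109.9 in INC libraries, against 207, 191, 164 and 207 in TE libraries, and there all INC values lay below all TE values. It was down-regulated during incubation at -0.66 (SE 0.15, adjusted p = 0.0437). In the HB the values were 156, 105, 125, 131 and 106 in INC libraries and 132, 141, 127 and 159.7 in TE libraries, which overlapped, at -0.18 (SE 0.15, adjusted p = 1). The VmT call held without each of the 27 libraries in turn but not with the thalamus and midbrain covariate (0.86, adjusted p = 0.0569) or in the VmT libraries fitted alone (adjusted p = 0.0906). That covariate itself went with stage in the VmT, at 5.03 to 5.70 in INC and 2.75 to 5.06 in TE libraries. The HYPO call was lost with female as a block (adjusted p = 0.0640) and without any 1 of 13 libraries, with adjusted p between 0.0514 and 0.127.

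SLC22A6-like (transcript OXPHG148554), a match to the organic anion transporter OAT1, was the other member up-regulated during incubation in the VmT, and it was near the detection limit. It had 2.78, 2.35, 2.098, 21.96 and 7.78 in INC libraries, against 0, 0.928, 1.25 and 0 in TE libraries, values that rest on 42 and 3 reads in all. The INC library of female 85889 stood far above the other INC libraries, and every INC value lay above every TE value. The log2 fold change was 2.06 (SE 0.51, adjusted p = 0.0218), and without VmT INC 85889 it was 1.58 and no longer called (adjusted p = 0.0747). The call was also lost without VmT TE 85674, VmT TE 85694 or VmT INC 85899 (adjusted p = 0.0729, 0.0547 and 0.0556). In all, 8 of 41 other settings lost it. The meninges, which express this transporter in mammals, were present in both groups, with 7 markers summing to 515 to 1272 in VmT INC libraries and 479 to 995 in VmT TE libraries, none called between the stages and none at 0 in all libraries. Their part in the SLC22A6-like difference was not tested.

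In the HB the 2 members with the lowest p were not called. SLC12A8, a cation-chloride family member, had 0, 1.96, 1.93, 2.08 and 0.975 in INC libraries, against 7.03, 2.73, 4.34 and 5.43 in TE libraries, from 7 and 19 reads. All INC values lay below all TE values, at -1.36 with an adjusted p of 1 in limma. SLC15A2 isoform X4 had 2582, 2612, 2446, 3405 and 2106 in INC libraries, against 1931, 2522, 2033 and 1910.2 in TE libraries, at 0.32 with an adjusted p of 1. The library at 3405, HB INC 85889, had a mean log2 value of pituitary markers of 10.43, against 0.68 to 5.22 in the other HB libraries. The part of pituitary tissue in its value was not tested.

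The difference between stages was itself compared between regions. For VmT against HYPO 6 members were called, 4 with the larger INC minus TE value in the VmT and 2 in the HYPO, where 5.95% of all transcripts were called (5.28% and 0.673% by direction). SLC43A3 differed most clearly, at 1.44 (SE 0.21, adjusted p = 0.000189), and this call held in all 42 other settings. SLC15A2 isoform X5 (PEPT2, transcript OXPHG451391), which clears peptides from the extracellular fluid, ran the opposite way. It had 875, 758, 823, 832 and 724 in VmT INC libraries, against 988, 1007, 1109 and 909 in VmT TE libraries. In the HYPO it had 938, 959, 924, 935 and 785 in INC libraries, against 627, 738, 780.4 and 704 in TE libraries. INC values lay below all TE values in the VmT and above all of them in the HYPO, although neither stage comparison was called on its own, with -0.32 (adjusted p = 0.117) in the VmT and 0.35 (adjusted p = 0.114) in the HYPO. The difference was -0.67 (SE 0.16, adjusted p = 0.00773) and was called in all 42 other settings. The sister row, isoform X4, was called in none of the stage comparisons, and since the 2 rows share sequence the split of reads between them is uncertain.

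SLC41A1, a magnesium transporter named after its values were seen, had 476, 509, 508, 714 and 502 in VmT INC libraries, against 452, 483, 446 and 462 in VmT TE libraries. In the HYPO it had 414, 395, 349, 435 and 435 in INC libraries, against 487, 499, 483 and 457 in TE libraries, all INC values below all TE values. The difference was 0.47 (SE 0.13, adjusted p = 0.0316), lost without HYPO TE 85674, HYPO TE 85689, HYPO TE 85691, HYPO INC 85840, VmT TE 85674 or the VmT TE library of the unsettled female, with adjusted p between 0.0539 and 0.0710. In all, 10 of the 42 other settings lost the call. The remaining 3 called rows rest on few reads. SLC22A6-like had 5.63, 2.02, 1.04, 1.04 and 3.46 in HYPO INC libraries, against 4.91, 5.71, 3.91 and 5.18 in HYPO TE libraries, and the difference to the VmT was 2.91 (SE 0.73, adjusted p = 0.0133), between 1.36 and 4.59 in the other settings. That call was lost in 1 of 41 other settings. SLC22A31 (transcript OXPHG331259), with no settled cargo, had 0.927, 2.35, 1.05, 3.92 and 0 in VmT INC libraries, against 0 in all 4 VmT TE libraries, and 0, 2.02, 0, 0 and 0.866 in HYPO INC libraries, against 3.93, 6.86, 1.303 and 5.18 in HYPO TE libraries. These values rest on 9, 0, 3 and 15 reads, and the fitted difference of 2.98 (SE 0.76, adjusted p = 0.0161) depends on the added 1 and lay between 1.099 and 6.497 in the other settings. SLC2A9 isoform X3, a urate and hexose carrier named after its values were seen, had 0, 0, 0, 0.784 and 0 in VmT INC libraries, against 0.933, 0.928, 3.14 and 0.975 in VmT TE libraries, and 2.82, 2.02, 1.04, 2.09 and 0.866 in HYPO INC libraries, against 0 in all 4 HYPO TE libraries. They rest on 1, 8, 8 and 0 reads, and the fitted difference was -2.48 (SE 0.66, adjusted p = 0.0206), between -6.33 and -0.75 in the other settings. It was not called in 3 of 41 other settings, among them the fit without the VmT TE library of the unsettled female (adjusted p = 0.0614).

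For VmT against HB the one called member was again SLC43A3, at 0.97 (SE 0.21, adjusted p = 0.0369), where 0.437% of all transcripts were called, and 14 of the 27 single libraries each ended the call when left out, with adjusted p between 0.0506 and 0.145. For HYPO against HB limma called 0 members, against 0.0% of all transcripts, with 5 members at an unadjusted p under 0.05 and 0 called by edgeR and by DESeq2. The comparisons of VmT with HYPO and with HB share the VmT libraries.

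**Figure D4:**
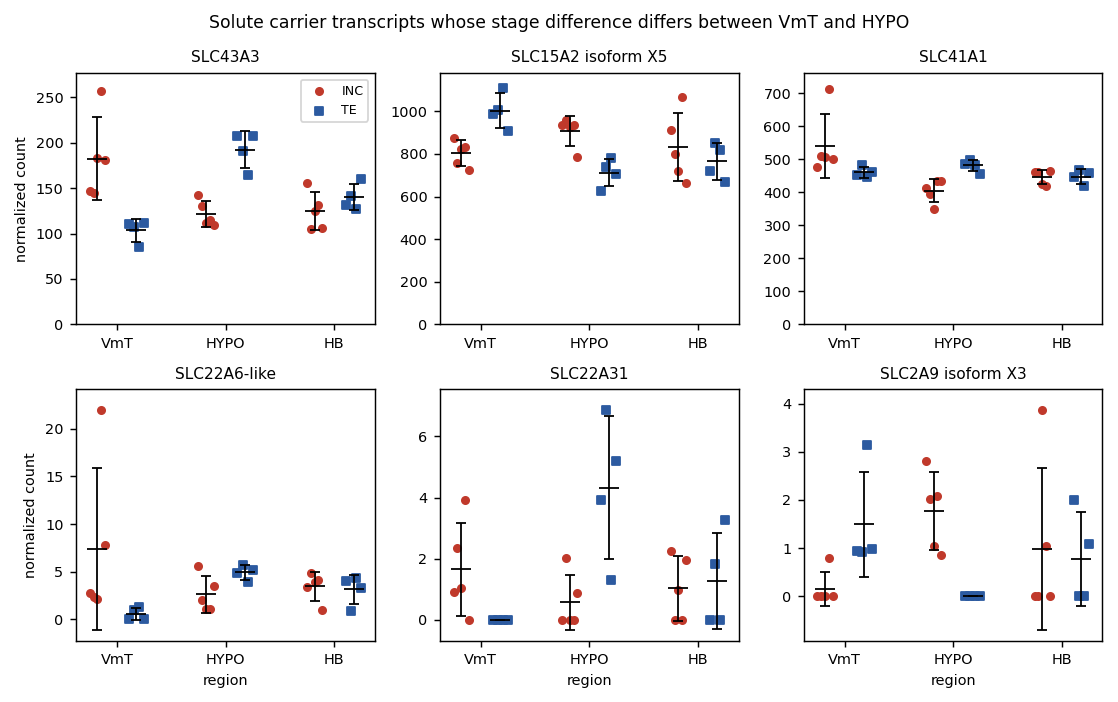
Normalized counts of SLC43A3, SLC15A2 isoform X5, SLC41A1, SLC22A6-like, SLC22A31 and SLC2A9 isoform X3 by region, with INC left of TE. Each point is 1 library and the bars are the mean ± SD of 5 INC or 4 TE libraries; SLC43A3 in INC lies above TE in the VmT and below TE in the HYPO, and the last 3 transcripts rest on 0 to 28 reads per library.

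Among the solute carriers with other titles the called rows were also more often lower than higher in the VmT. Of these 256 rows 31 were higher and 60 lower in the VmT than in the HYPO, 42 higher and 85 lower in the VmT than in the HB, and 19 higher and 38 lower in the HYPO than in the HB. Of all transcripts, 11.7% and 14.1%, 17.6% and 25.7%, and 5.33% and 7.05% were called in these directions. Between the stages 9 were up-regulated and 1 was down-regulated during incubation in the VmT, 1 was down-regulated in the HYPO and 0 were called in the HB. The shares of all transcripts were 3.1% up-regulated and 0.426% down-regulated in the VmT, 0.293% down-regulated in the HYPO and 0.00514% called in the HB. Of the 15 partners and regulators of the transporters, such as basigin and the kinases that switch chloride cotransporters, 2 were higher and 10 lower in the VmT than in the HB. Of the 15 vacuolar proton pump subunits, which build the gradient that proton-coupled carriers use, 0 were higher and 8 lower in the VmT than in the HB, and of the 7 sodium pump subunits 0 were higher and 3 lower. These lists and the members thus leaned to the same side as all transcripts did in that comparison, where 17.6% were higher and 25.7% lower in the VmT.

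For some members the same female had the highest or the lowest value in all 3 regions, about as often as for other transcripts. Of the 50 rows with a mean of at least 50, the same female had the highest value in all 3 regions for 3 (6.0%, against 6.81% of 11797 transcripts) and the lowest for 4 (8.0%, against 6.46%). Female 85674, of TE, had the highest SLC23A2 value in each region, at 2072, 1636 and 1496 in VmT, HYPO and HB, beside a next highest of 1351, 1356 and 1255. Female 85899, of INC, had the lowest SLC25A38 isoform X2 value, the carrier that brings glycine into mitochondria, at 113, 159 and 140.3, beside a next lowest of 226, 214 and 198. These rows were chosen after their values were seen, apart from SLC23A2, and no test was made of them.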

How the data were processed

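The labels list 30 dissected brain samples, of which 27 have values here, after the study's removal of a TE female. Their total RNA had been made into stranded mRNA libraries and sequenced as paired reads. Per the study's methods, the authors trimmed reads with Trimmomatic 0.36, mapped them to a tree swallow transcriptome with Bowtie2 2.3.4.1, kept proper pairs with SAMtools 1.3.1, counted reads per transcript and dropped transcripts with few reads. The deposited values are a signal per transcript: read counts scaled by a single size factor for each library, since all low values (100%, tolerance 0.1) were whole multiples of what 1 read is worth there. Their reference was a transcriptome, so no genome positions are given, and no sequences were used here. Members and marker lists were chosen with earlier results of these data known.

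Values were tested as log2(value + 1) with limma 3.58.1 (trended empirical Bayes, R 4.3.3) in 1 fit of the 6 groups of region and stage, over transcripts that reached 1 or more in 4 or more libraries, and p-values were adjusted by Benjamini-Hochberg over all 19473 transcripts. Region contrasts averaged the 2 stages. P-values measure the spread between the libraries of a group, pooled over the 6 groups. Within a group each library is of another female, but the main fit did not pair a bird's libraries across regions. Rows named by rule were, for each pair of regions, the called rows with a mean of at least 50 and no overlap between libraries (at most 4 in each direction, 1 row per gene), the rows called between stages (in the HB the 2 with the lowest p), at most 4 rows per stage difference, and SLC2A1, SLC2A3, SLC12A2, SLC12A5, SLC12A7, SLC13A4, SLC13A5 and SLC23A2 whatever they did. The scripts were tested on simulated counts. The whole reads were also tested with edgeR 4.0.16 and DESeq2 1.42.0. Other settings were pseudocounts of 0.5 and 5, no filter or a mean of at least 50, TMM and quantile scaling, array weights, no variance trend, female as a block, a thalamus and midbrain marker score as covariate, single stages, only the regions compared, and each library left out. The VmT library with 2 numbers entered as a female of its own. Female numbers in the labels pair the libraries of a bird: the deviations from the group means of same-female libraries correlated at a median of 0.142 over 25 pairs (-0.215 to 0.384), against -0.05 for 98 pairs of different females of 1 stage.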

Additional observations from a re-analysis of the deposited data

Results flagged for a closer look

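In groups of 4 or 5 libraries, 9 of the 108 groups of the named rows held a library whose gap to the others passed Dixon's 95% limit, where chance gives about 1 in 20. SLC40A1 was 646 in HYPO INC 85757 (other libraries of the group 483 to 517) and 539 in HYPO TE 85689 (others 458 to 471). SLC22A5 was 137 in HYPO TE 85689 (others 109 to 114). SLC43A3 was 85.3 in the VmT TE library of the unsettled female (others 107 to 111). SLC22A6-like was 21.96 in VmT INC 85889 (others 2.098 to 7.78). SLC15A2 isoform X5 was 785 in HYPO INC 85899 (others 924 to 959). SLC2A3 was 4456 in VmT TE 85674 (others 3599 to 3724) and 3434 in HYPO TE 85694 (others 3499 to 3511). SLC23A2 was 2072 in VmT TE 85674 (others 1009 to 1137), the library of the bird that was also highest in the other regions. The stage effect, INC minus TE, differed between VmT and HYPO by 1.44 for SLC43A3, -0.67 for SLC15A2 isoform X5, 2.91 for SLC22A6-like, 2.98 for SLC22A31, -2.48 for SLC2A9 isoform X3 and 0.47 for SLC41A1, and between VmT and HB by 0.97 for SLC43A3, all by limma's test of the difference itself.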

How the results depend on the processing

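Of the 83 calls of members, 25 held in every one of up to 44 other settings, 21 of them between VmT and HB and 1 between VmT and HYPO. Between VmT and HYPO, the 26 calls became 3 with the thalamus and midbrain score as covariate, where SLC35F1 isoform X1 also changed sign (-0.0031), and 17 in INC libraries alone. The score was 2.75 to 5.70 in the VmT and 5.65 to 6.39 in the HYPO, and in the VmT it also went with stage. A fit that holds it can therefore not tell the score apart from region or, in the VmT, from stage. Between HYPO and HB, the 9 calls became 19 with array weights, 2 in INC libraries alone and 1 in TE libraries alone, both from fewer samples. For the stages in the VmT, the 2 calls became 1 with a pseudocount of 5, 1 with quantile scaling, 0 with the score, 0 in the VmT libraries alone and 4 without the 3 libraries of female 85757, a setting added after the data were seen. There a member was called lower during incubation with a mean of at least 50 (1 of 2 calls), with array weights (1 of 3) and without female 85757 (1 of 4). For the stages in the HYPO, the 1 call became 0 with a mean of at least 50, with TMM scaling, without the variance trend and with edgeR. The 6 stage differences between VmT and HYPO became 3 with a mean of at least 50, where fewer transcripts were tested, and the 1 between VmT and HB became 0 with TMM scaling, without the variance trend, with the score, in these 2 regions alone and with edgeR. Except where fewer samples or transcripts entered, the cause was not tested. Leaving out 1 library at a time gave 20 to 28, 31 to 40 and 6 to 10 calls for VmT and HYPO, VmT and HB, and HYPO and HB, 2 to 4, 0 to 1 and 0 to 0 for the stages in VmT, HYPO and HB (4 without VmT INC 85757, and 0 in the HYPO without any 1 of 13 libraries), and 5 to 7, 0 to 1 and 0 to 0 for the stage differences. With female as a replicate block, which pairs the libraries of a bird, the counts were 32, 46 and 21 between regions, 2, 0 and 0 between stages and 9, 1 and 0 for the differences, and with the unsettled library as female 85691, also added later, 20 between HYPO and HB and 0 for the stages in the HYPO. All 26, 38 and 9 regional calls were among those of the block. The shares of all transcripts called with the block are not given here. DESeq2 gave as many calls as limma in each comparison, of which 24, 33 and 7 were the same rows between regions, and edgeR gave 27, 39 and 7 with 22, 32 and 6 shared. Depth limits the 29 members with a mean under 10 normalized counts, whose stage values rest on a few reads per library.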

Other observations

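Together the members took 0.421 to 0.445% of the normalized counts in HYPO INC libraries, against 0.3999 to 0.419% in HYPO TE libraries, with no overlap. The stages overlapped in the VmT, at 0.403 to 0.421% in INC and 0.391 to 0.418% in TE. They also overlapped in the HB, at 0.424 to 0.467% and 0.416 to 0.442%. No test was made of this share, and it was noticed after the values were seen. SLC35F5, of the nucleotide sugar family, had 104.8, 199.8, 218, 281 and 270.1 normalized counts in VmT INC libraries, against 368, 384, 271 and 279 in VmT TE libraries, and narrowly missed the call in limma at a log2 fold change of -0.66 (adjusted p = 0.0561). Among the ABC transporters, the other large group of membrane carriers, 6 of 27 were higher and 10 lower in the VmT than in the HB. Of all transcripts 17.6% and 25.7% were. Against the HYPO 5 were higher and 9 lower in the VmT, beside 11.7% and 14.1% of all transcripts. During incubation 1 was up-regulated in the VmT, where 3.1% of all transcripts were. INC minus TE was called larger in the VmT than in the HYPO for 3 and smaller for 1, beside 5.28% and 0.673% of all transcripts.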
